A study of Homo sapiens with 18 samples.

Results

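The segment of chromosome 11q22 examined here ran from 99 to 104 Mb of the GRCh37 (hg19) assembly and held 399 of the 115087 regions in the peak set of the series, out of 5817 regions on chromosome 11. A region was counted as a member when it lay on chromosome 11 and started between both limits. Chromatin accessibility was measured by the assay for transposase-accessible chromatin with sequencing (ATAC-seq), in which the Tn5 transposase cuts and tags open DNA, in the established head and neck squamous cell carcinoma (HNSCC) cell lines SCC1, SCC6 and SCC25. Each line received cetuximab (100 nM), an antibody against EGFR, or PBS daily for 5 days, in 3 replicates each, except that SCC1 with PBS was read from replicates 1 and 3 and its replicate 2 is not analysed here. The labels name no other agent, allele or selection in any group. Each line stands for the tumour of 1 person, so a difference between lines is a difference between single lines.

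The segment carries YAP1, the transcriptional co-activator that the Hippo kinases hold out of the nucleus and that works through TEAD factors, and BIRC2 and BIRC3, which encode the inhibitor of apoptosis proteins cIAP1 and cIAP2. It also carries TRPC6, which encodes a calcium-permeable channel, and a cluster of matrix metalloproteinase (MMP) genes whose products cut collagens and other matrix proteins. This stretch of 11q is known as a site of DNA amplification in squamous carcinomas, and several MMP promoters are known to respond to AP-1, the JUN and FOS factors downstream of EGFR signalling.

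The segment was selected on the measured signal, because its values in SCC6 stood far above those of SCC1 and SCC25 and because many of its regions differed between cetuximab and PBS in SCC6. The differences between lines and the cetuximab contrast of SCC6 are therefore given as descriptions, without tests. The cetuximab contrasts of SCC1 and SCC25 were not part of that choice and were tested. The last regions before the segment started at 98907017, 98939665 and 98940628 and had log2 differences between SCC6 and SCC1 of 4.52, 0.10 and -1.04. The first members, at 99131520, 99177215 and 99185885, had 2.90, 4.14 and 2.80. The last members, at 103944787, 103947228 and 103982754, had -2.79, -3.01 and -0.77, and the first regions beyond, at 104005558, 104034783 and 104063427, had -0.02, -1.26 and 3.56. Values near both limits varied from region to region.

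4 stretches of reference sequence are shown, because some of the largest or best supported cetuximab differences of the segment outside promoters fell on them. Each is the central 300 bases of its region on the plus strand of GRCh37. Capitals mark the AP-1 motif TGANTCA and the TEAD motif GGAATG on either strand, which do not overlap in these windows.
TRPC6 intron, chr11:101349479-101349778, plus strand: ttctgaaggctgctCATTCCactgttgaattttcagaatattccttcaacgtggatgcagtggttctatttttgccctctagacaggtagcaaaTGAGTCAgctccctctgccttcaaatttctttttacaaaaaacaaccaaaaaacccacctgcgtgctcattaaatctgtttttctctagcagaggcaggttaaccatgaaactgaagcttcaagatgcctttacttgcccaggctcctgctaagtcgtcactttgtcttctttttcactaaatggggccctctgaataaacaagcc
Intergenic region distal to MMP13, chr11:102878374-102878673, plus strand: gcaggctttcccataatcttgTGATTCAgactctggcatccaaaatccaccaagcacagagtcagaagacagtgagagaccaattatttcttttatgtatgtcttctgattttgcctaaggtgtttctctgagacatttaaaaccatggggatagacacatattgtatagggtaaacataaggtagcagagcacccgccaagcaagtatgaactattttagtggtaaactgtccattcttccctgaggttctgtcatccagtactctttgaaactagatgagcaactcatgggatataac
ARHGAP42 intron, chr11:100721931-100722230, plus strand: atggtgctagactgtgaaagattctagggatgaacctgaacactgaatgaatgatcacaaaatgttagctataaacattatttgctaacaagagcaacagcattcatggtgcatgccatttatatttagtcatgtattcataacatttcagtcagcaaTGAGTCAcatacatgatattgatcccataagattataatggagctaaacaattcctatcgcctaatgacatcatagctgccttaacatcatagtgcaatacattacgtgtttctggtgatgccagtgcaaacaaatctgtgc
Intergenic region downstream of YAP1, chr11:102140724-102141023, plus strand: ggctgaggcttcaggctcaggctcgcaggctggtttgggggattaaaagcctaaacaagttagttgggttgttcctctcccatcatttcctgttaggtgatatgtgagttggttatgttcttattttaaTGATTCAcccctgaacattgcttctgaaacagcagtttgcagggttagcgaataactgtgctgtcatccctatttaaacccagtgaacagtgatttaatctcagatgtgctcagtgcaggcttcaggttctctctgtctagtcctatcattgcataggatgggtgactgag
Each of the windows held 1 AP-1 motif, and the TRPC6 intron also held 1 TEAD motif. A match to these letters is a description and not a binding site.

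The deposited values were normalised read counts, and each library's values were whole multiples of what 1 read was worth. The libraries held 2194851 to 15017130 reads in regions. The median region held 7 to 15 reads in SCC1, 17 to 68 in SCC6 and 11 to 65 in SCC25, whereas the median member held 5 to 9 reads in SCC1, 78 to 296 in SCC6 and 8 to 41 in SCC25. Members were thus read more finely than the median region in SCC6 and more coarsely in the other lines. In SCC1 a difference of a few reads was not detectable at this depth. The promoters of all 6 epithelial marker genes had a region in the set, as had 1 of 5 leukocyte, 0 of 3 endothelial and 3 of 4 mesenchymal marker genes. CD14, the leukocyte gene, fell in SCC1 (log2 change -1.32, adjusted p = 0.00248, limma, means of 35.1 with cetuximab and 86.9 with PBS), and COL1A1, a mesenchymal gene, rose (0.66, adjusted p = 0.038). Their part in the results of that line was not tested. KRT14, a keratin of basal epithelium, was close to background in SCC6, with mean normalised read counts of 1.82 with cetuximab and 1.66 with PBS. The labels do not say whether replicates were separate cultures, so p-values measure the spread between these samples, which may be technical.

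SCC6 placed far more of its reads in the segment than the other lines. The share of reads in regions that fell in members was 2.39, 2.34 and 2.23% with cetuximab and 2.40, 2.36 and 2.45% with PBS in SCC6, against 0.216 to 0.250% in SCC1 and 0.260 to 0.290% in SCC25. No SCC6 library came near a library of another line. After the median difference over all regions was subtracted, the median member was 3.49 log2 units higher in SCC6 than in SCC1, 3.27 higher than in SCC25, and 0.24 higher in SCC25 than in SCC1. These medians were over regions kept by their mean over all 17 libraries, from a set that pools the peaks of every line. Regions near 1 read in SCC1 and SCC25 could thus be kept through SCC6 alone, which favours high SCC6 values. The same holds for the pieces and windows below. Among the members, 192 had a peak in SCC6 and in no library of the other lines. The share of all regions with such a pattern was not computed.

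The high signal of SCC6 had sharp ends when the difference between lines was divided into pieces along 10 Mb to either side. Against SCC1, a single piece of 339 tested regions ran from 99289615 to 103620237, over 4.33 Mb, with a median log2 difference of 3.53, which corresponds to 11.5-fold. The flanking pieces had medians of 0.22 over 263 regions on the centromeric side and -0.91 over 373 regions on the telomeric side. Against SCC25 the piece ran from 99322978 to 103620237 over 338 regions, with a median of 3.34 between flanks of 1.05 and -1.20. Between SCC25 and SCC1 no piece of this kind was found. In the main setting the only border lay outside the segment, between 97445116 and 97446097, with medians of -0.91 before and 0.20 after it. With PBS libraries only, and with a pseudocount of 5, a second border lay inside the segment, between 100866211 and 100874212. The median before it, back to 97446097, was 0.99 and 0.71, and after it 0.08 and 0.03. SCC6 therefore stood apart from both lines over the same stretch. SCC25 stood above SCC1 in part of it, with medians of 1.86 and 1.70 over the 0.5 Mb windows from 100 to 101 Mb.

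**Figure D1:**
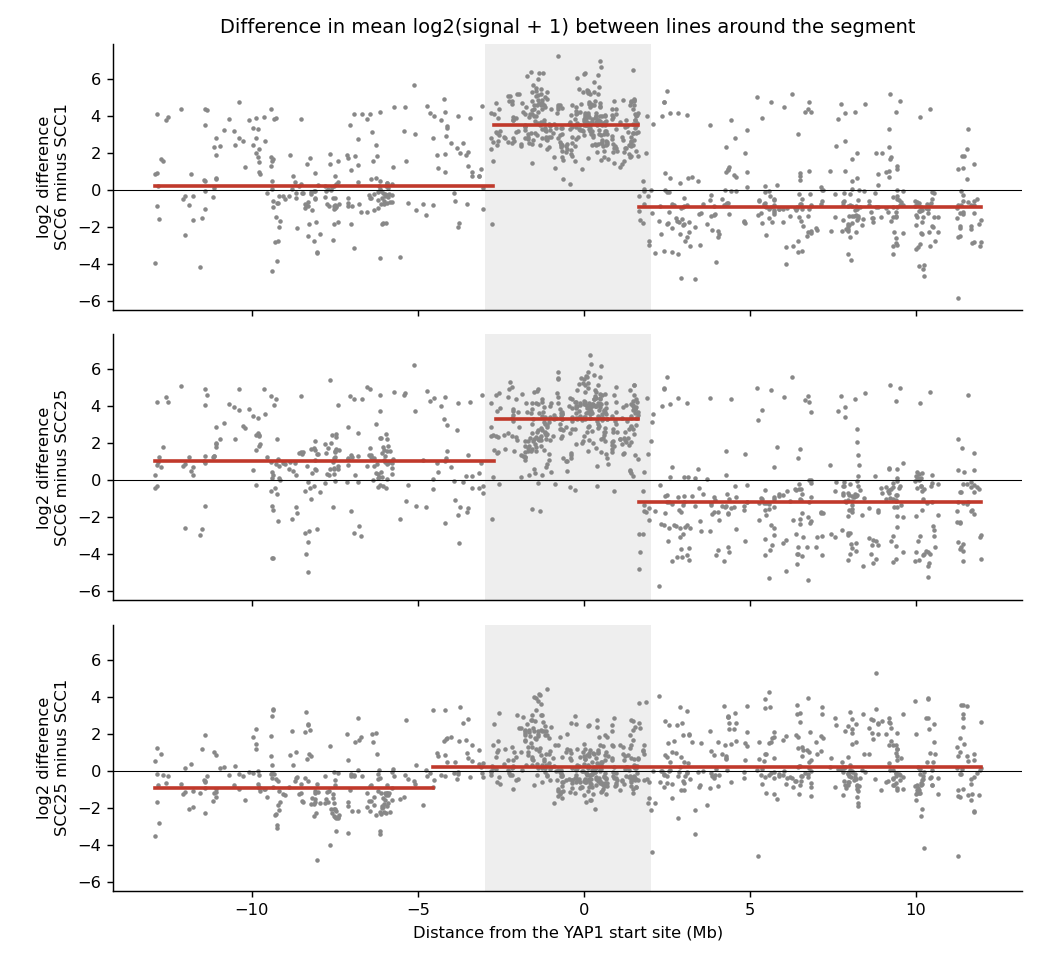
Difference in mean log2(normalised read count + 1) between each pair of lines (vertical axis, log2 units, median over all regions subtracted) against distance from the YAP1 start site in Mb. Each grey point is a region, red lines are the medians of the pieces and the grey band is the segment. The SCC6 piece sits at 3.53 against SCC1 and at 3.34 against SCC25, and no such step appears between SCC25 and SCC1.

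The telomeric border lay between 103620237 and 103646489, a gap of 26.3 kb in the intergenic stretch beyond DYNC2H1. It was found there against both lines with each SCC6 library taken alone. The last region inside it, at 103619886, had mean normalised read counts of 281 with cetuximab and 71.0 with PBS in SCC6, against 12.3 and 11.3 in SCC25. The next region, at 103646489, had 0.756 and 0.988 in SCC6, the value of 1 read, against 47.5 and 56.0 in SCC25. The SCC6 signal thus went from above that of SCC25 to below it across this gap. Of the 17 members beyond the border, 7 were higher in SCC6 than in SCC1, and their median difference was -0.35, against 3.43 for the 374 members inside, of which 360 were higher in SCC6. The members inside that were not higher were the 14 that stood at 1 read in every library, described below, whose level could not be read.

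The centromeric border was less sharp. Single SCC6 libraries placed it between 99.2 and 99.3 Mb against SCC1, except cetuximab replicate 1, which placed it at 96.6 Mb, and at 99.3 or 99.4 Mb against SCC25. The 8 members before the border had a median difference of 2.40 from SCC1. Regions far outside the segment were also higher in SCC6 than in SCC1. The medians were 3.02, 2.82 and 2.90 over the 0.5 Mb windows from 96.5 to 98 Mb (7, 7 and 11 regions), and 3.72, 1.09 and 1.21 against SCC25. Windows from 79.5 to 82 Mb had 2.64 to 3.70 against SCC1 and -0.25 to 4.17 against SCC25. Few regions stood on this side, which lies over the gene-poor stretch of CNTN5, a neural cell adhesion gene.

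The piece was not flat. The median difference from SCC1 was 4.42 over the ARHGAP42 gene, 3.86 over YAP1, 3.56 from BIRC3 to BIRC2, 4.30 over TMEM123, 3.00 over the MMP cluster, 2.52 over TRPC6 and 2.33 over DYNC2H1. These medians were over all listed regions, without the filter on low values. The 60 regions of the MMP cluster included the 14 at 1 read in every library, described below, which lowers its median. Beyond the border, PDGFD, the gene of a platelet-derived growth factor, had -0.21. SCC25 also stood above SCC1 over ARHGAP42, with a median of 1.91 over 32 regions, and by less over PGR (0.65), CNTN5 (0.38) and DYNC2H1 (0.20).

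Promoters with a peak in all 3 lines were compared on their own. Over 10 such promoter regions, the ratio of the SCC6 to the SCC1 mean (not centred) ranged from 4.21 to 17.4 with a median of 10.2, and that of SCC6 to SCC25 from 6.15 to 17.3 with a median of 12.8. SCC25 over SCC1 ranged from 0.573 to 1.28. The CEP126 promoter, which had the highest signal of the segment in SCC6, was 17.4 times that of SCC1, BIRC2 13.8 times and BIRC3 11.9 times, while DCUN1D5 and DYNC2H1, on the telomeric side of the MMP cluster, were 4.70 and 4.21 times that of SCC1.

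Signal outside peaks was also read. Over regions in which no library of a line had a peak, the signal per base in members relative to all regions was 4.62 to 4.94 with cetuximab and 5.44 to 5.64 with PBS in SCC6, from 22 members. It was 0.771 to 0.909 in SCC1 from 312 members and 1.02 to 1.21 in SCC25 from 208 members. The enrichment of the peaks themselves over their local background was not raised in SCC6, with a median fold of 3.65 to 4.05 over the peaks of the segment and 3.84 to 4.10 over all peaks of these libraries. Peaks were called in members in at least 1 library for 377 members in SCC6, 191 in SCC25 and 87 in SCC1, and 192 members had peaks in SCC6 alone. The lines ranked alike over all 115087 regions, of which 22792 had no peak in SCC6, 41126 none in SCC25 and 70211 none in SCC1. Copy number was not measured, so more copies of the DNA and more open chromatin per copy cannot be told apart here.

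Cetuximab was tested in SCC1 and SCC25 with limma over all regions left after the lowest 25% were set aside. In SCC1, 5 of 325 tested members rose and 13 fell, that is 5.54% in either direction, against 4.57% of all regions that rose, 6.56% that fell and 11.1% in either direction. The split depended on the scaling, with 10 higher and 9 lower after median centring and 10 and 13 after quantile normalisation. In SCC25, none rose and 1 of 317 fell, against 0.0405% and 0.275% of all regions and 0.315% in either direction. At an unadjusted p under 0.05, 15 members were higher and 33 lower in SCC25 with limma, and after adjustment edgeR called 4 and DESeq2 1. In SCC1 and SCC25 together, with the line as a covariate, 1 of 312 rose and 7 fell, against 0.925%, 2.79% and 3.72% in either direction, with 2 and 4 after median centring and 4 and 5 after quantile normalisation. The share of members called in either direction was at or below that of all regions in each of these comparisons.

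In SCC6, by description, 108 of 376 tested members were past the same threshold as higher with cetuximab and 116 as lower, 59.6% in either direction, beside 16.9%, 10.6% and 27.5% of all regions, and after median centring 89 and 151. This contrast was used to choose the segment, and its members held more reads than other regions. The median change of tested members was 0.0032 in SCC6 (all regions 0.11), -0.05 in SCC1 (all regions -0.09), -0.12 in SCC25 (-0.08) and -0.09 in both lines together (-0.09). These medians lie over members that were higher and members that were lower. Libraries did not overlap between treatments, as higher or lower with cetuximab, for 43 and 64 members in SCC1 (all regions 15.9 and 24.1%), 119 and 137 in SCC6 (23.1 and 17.2%) and 20 and 37 in SCC25 (6.08 and 12.3%).

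**Figure D2:**
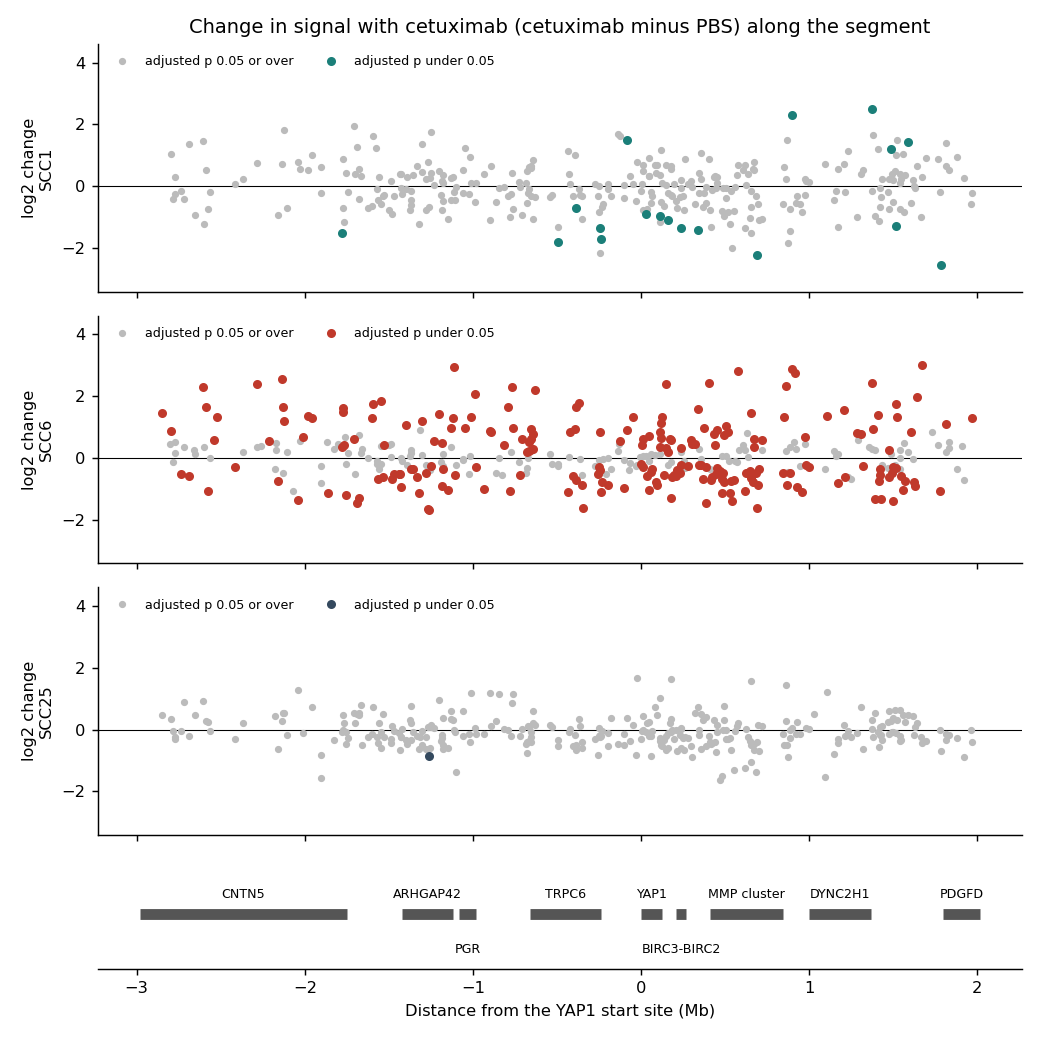
Cetuximab against PBS change of each tested member (vertical axis, log2 units) in each line along the segment, against distance from the YAP1 start site in Mb, with genes drawn below. Coloured points have an adjusted p under 0.05 in limma, and in SCC6 they are a description. Coloured points number 18 in SCC1, 224 in SCC6 and 1 in SCC25, and in SCC6 they lie on both sides of 0 throughout.

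The members that differed in SCC6 were set beside their values in the other lines. The 108 that were higher in SCC6 had a median change of 0.26 over the 96 tested in SCC1 (58 above 0) and 0.06 over the 94 tested in SCC25 (52 above 0). The 116 that were lower had -0.30 over 109 in SCC1 (37 above 0) and -0.18 over 107 in SCC25 (31 above 0). Over all members tested, 153 of 325 were above 0 in SCC1 and 119 of 317 in SCC25. The sets were formed on the SCC6 contrast, so sizes are not compared between lines.

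The YAP1 promoter, at 101980600 to 101983017 over the first coding exon, had the highest signal of the segment in SCC1. Its normalised read counts were 420, 368 and 501 with cetuximab and 470 and 484 with PBS in SCC1, where the groups overlapped. In SCC25 they were 221, 312 and 259 with cetuximab and 324, 328 and 327 with PBS, all lower with cetuximab, although the region did not pass the test. In SCC6 they were 5030, 4811 and 4398 with cetuximab and 5263, 5317 and 5728 with PBS, a log2 difference of -0.20 ± 0.04 (SE). The SCC6 groups did not overlap, and the difference was small beside the 11.4-fold and 17.3-fold ratios of SCC6 to SCC1 and SCC25 at this promoter.

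Within the YAP1 gene, 21 regions were listed. None rose and 2 fell in SCC1 (all regions 4.57 and 6.56%). In SCC6 7 were higher and 8 lower with cetuximab (all regions 16.9 and 10.6%, tested members 28.7 and 30.9%). In SCC25 limma, edgeR and DESeq2 called none, and 0 were higher and 2 lower at an unadjusted p under 0.05. Both falls in SCC1 were intronic, at 102009101 (log2 change -0.88, adjusted p = 0.021 in limma) and at 102094556 (-0.94, adjusted p = 0.019). They were kept in 8 and 7 of 12 alternatives, and both were lost without PBS replicate 3 (highest adjusted p over the alternatives 0.560 and 0.435).

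The best supported change near YAP1 lay 42.9 kb beyond the start site nearest to it, in the intergenic region at 102140629 to 102141118 whose centre is printed above. In SCC1 its normalised read counts were 47.0, 68.1 and 45.4 with cetuximab and 117 and 107 with PBS. In SCC25 they were 121, 132 and 110 with cetuximab and 188, 184 and 176 with PBS. It was lower in every cetuximab library of both lines, and it fell in SCC1 (log2 change -1.08 ± 0.29, adjusted p = 0.00456) and in both lines together (-0.81 ± 0.15, adjusted p = 0.0107, limma). The SCC1 call was lost without PBS replicate 1 (adjusted p = 0.178) or PBS replicate 3 (0.0804), each of which leaves 1 PBS library, and the joint call likewise (0.0846 and 0.0699). In SCC6 the counts were 1283, 1325 and 1086 with cetuximab and 1157, 1025 and 1057 with PBS, and the groups overlapped.

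The promoter regions of highest signal of both inhibitors of apoptosis were lower with cetuximab in SCC6 and did not pass the test in the other lines. BIRC3, at 102187874 to 102188571, had 1980, 1975 and 1714 with cetuximab and 2947, 2688 and 2784 with PBS in SCC6, a log2 difference of -0.57 ± 0.05, or 1.49-fold. In SCC1 it had 207, 138 and 171 against 247 and 220, lower in every cetuximab library, and in SCC25 142, 142 and 138 against 171, 125 and 137, where the groups overlapped. BIRC2, at 102217372 to 102218312, had 2581, 2502 and 2193 with cetuximab and 3049, 2694 and 2829 with PBS in SCC6, a log2 difference of -0.24 ± 0.05.
The BIRC2 promoter groups overlapped in SCC1 and in SCC25. Its counts were 169, 165 and 236 with cetuximab and 185 and 203 with PBS in SCC1, and 138, 181 and 179 against 167, 155 and 163 in SCC25.

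Over the stretch from BIRC3 to BIRC2, with 9 regions, 1 fell in SCC1 (all regions 6.56%). None was called in SCC25 by limma, edgeR or DESeq2 (0 at an unadjusted p under 0.05). In SCC6 1 was higher and 4 lower (all regions 16.9 and 10.6%, tested members 28.7 and 30.9%). The fall in SCC1 was another, weaker promoter region of BIRC2, at 102216640 to 102216950 (log2 change -1.33 ± 0.45, adjusted p = 0.033 in limma). This region was also called in both lines together (-0.92, adjusted p = 0.047) and was 0.32 higher with cetuximab in SCC6. Its calls were kept in 5 of 12 and 4 of 18 alternatives, and among the losses were those without cetuximab replicate 1, PBS replicate 1 or PBS replicate 3 of SCC1 (adjusted p up to 0.417).

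**Figure D3:**
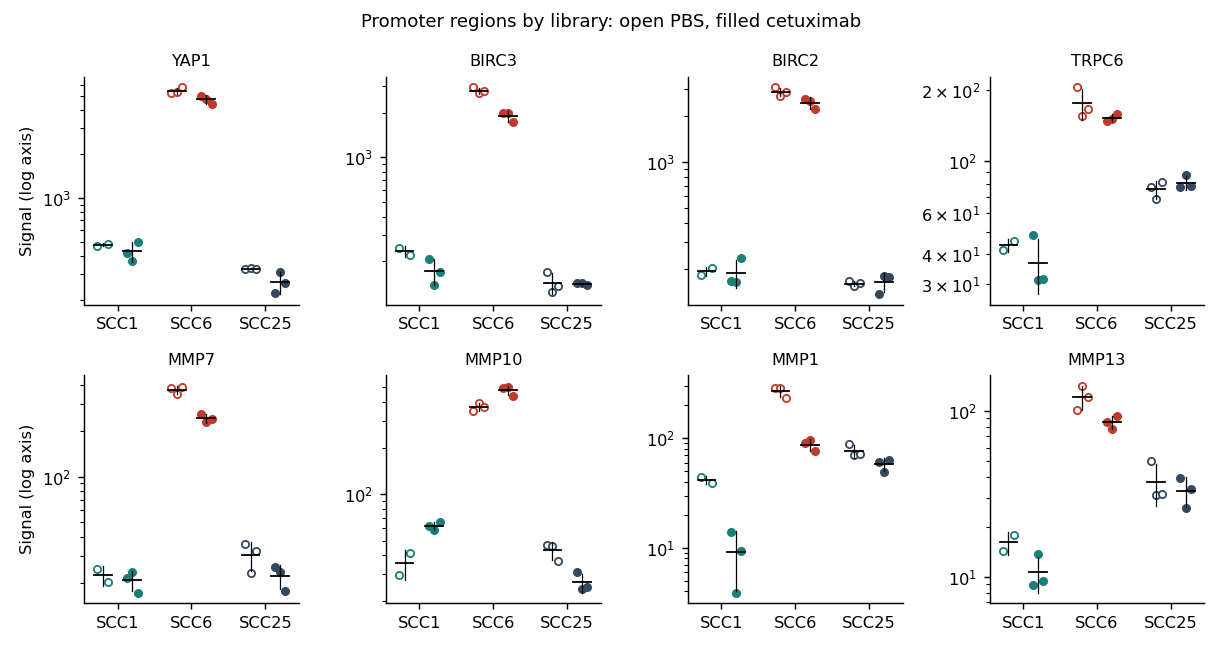
Normalised read counts (vertical axis, log scale) at 8 promoters of the segment in each line. Open points are PBS and filled points cetuximab libraries, black lines are means and bars ± SD. SCC6 has the highest mean at every promoter, and at MMP1 the cetuximab points lie below the PBS points in all 3 lines.

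TRPC6 had a weak promoter and changes in its introns. The promoter region at 101453976 to 101454841 had 48.2, 31.1 and 31.3 with cetuximab and 41.6 and 45.8 with PBS in SCC1, 148, 151 and 158 against 205, 156 and 166 in SCC6, and 77.3, 87.3 and 77.9 against 77.3, 68.5 and 81.4 in SCC25. The groups overlapped in all 3 lines, and SCC6 exceeded SCC25 there by only 2.10 times. Of the 29 regions over the gene, 27 were tested in SCC1 and 4 fell (all regions 6.56%). In SCC6 10 were higher and 9 lower (all regions 16.9 and 10.6%, tested members 28.7 and 30.9%). In SCC25 limma, edgeR and DESeq2 called none, and 1 was higher and 4 lower at an unadjusted p under 0.05.

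The falls with the smallest adjusted p lay 1.69 and 5.28 kb from a TRPC6 start site at the telomeric end of the annotated gene. The region at 101741253 to 101741607 had 11.4, 31.1 and 26.6 with cetuximab and 78.1 and 64.8 with PBS in SCC1, a log2 change of -1.70 ± 0.39 (adjusted p = 0.000817). In SCC6 it had 322, 289 and 251 against 614, 622 and 600, a log2 difference of -1.10 ± 0.09. Both lines were lower in every cetuximab library.
Its neighbour at 101737393 to 101738014 had 22.8, 33.1 and 39.1 with cetuximab and 76.8 and 83.7 with PBS in SCC1 (-1.35 ± 0.34, adjusted p = 0.00312). The intronic region at 101488660 to 101488932 had 11.4, 11.7 and 9.39 against 39.0 and 41.3 in SCC1 and 54.8, 36.5 and 30.1 against 59.9, 57.0 and 55.1 in SCC25, and fell in both lines together (-1.10 ± 0.27, adjusted p = 0.0271). In SCC25 the groups overlapped at 101741253, with 14.1, 31.9 and 60.2 against 40.3, 38.2 and 28.0. The remaining fall over the gene in SCC1 was at 101591869 (-0.69, adjusted p = 0.048), a region 1.64 log2 units higher with cetuximab in SCC6. That call was kept in 5 of 12 alternatives and lost without cetuximab replicate 1 or 3 or PBS replicate 1 or 3 (adjusted p up to 0.436). Without PBS replicate 1 the adjusted p was 0.124 at 101741253, and the joint call at 101488660 had 0.142 without PBS replicate 1 and 0.136 without PBS replicate 3. Without PBS replicate 1 or 3 the region at 101737393 also lost its call, with the highest adjusted p at 0.122.

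A different TRPC6 intron was much higher with cetuximab in SCC6, the region at 101349223 to 101350035 whose centre is printed above, which was picked after its values were seen. It had 1701, 1648 and 1564 with cetuximab and 384, 337 and 347 with PBS in SCC6, a log2 difference of 2.20. SCC1 had 194, 237 and 252 with cetuximab and 291 and 287 with PBS, and SCC25 had 114, 137 and 117 against 119, 112 and 100. TRPC6 introns thus held differences of both signs within a single gene in SCC6.

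MMP1, the interstitial collagenase gene, had the largest cetuximab difference of the named promoters in SCC1 and SCC6, though not in SCC25. Its promoter region at 102668796 to 102669389 had 14.0, 3.89 and 9.39 with cetuximab and 44.2 and 39.1 with PBS in SCC1, and it fell (log2 change -2.22 ± 0.57, adjusted p = 0.00336, limma). No SCC1 library had a peak there, and the SCC1 counts with cetuximab were low, whereas every SCC25 library had a peak. In SCC25 it had 60.5, 48.8 and 63.8 with cetuximab and 88.6, 70.7 and 71.3 with PBS, and in SCC6 89.9, 96.6 and 76.4 against 290, 286 and 234, 3.08-fold lower (log2 difference -1.61 ± 0.14). Every cetuximab library was below every PBS library of its line, in all 3 lines. The fall passed the test in SCC1 and SCC25 together (-1.21 ± 0.32, adjusted p = 0.0346) and not in SCC25 alone. The change in SCC25 exceeded that in SCC1 by 1.81 ± 0.51, which did not pass (adjusted p = 0.0723). The SCC1 call was lost without PBS replicate 1 (0.185) or 3 (0.0966), and the joint call without either (0.180 and 0.158), without SCC1 cetuximab replicate 3 (0.0573) or without SCC25 PBS replicate 1 (0.0512). This promoter was also the one at which SCC6 exceeded SCC25 least among the MMP genes, by 2.66 times.

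MMP10, the stromelysin-2 gene next to MMP1, went the other way. Its promoter at 102651186 to 102651546 had 62.2, 58.4 and 65.7 with cetuximab and 29.9 and 41.3 with PBS in SCC1, and 493, 503 and 440 against 353, 397 and 374 in SCC6 (log2 difference 0.35 ± 0.08). In SCC25 it had 30.9, 24.1 and 24.8 with cetuximab against 46.7, 46.2 and 36.5 with PBS. The groups were apart in all 3 lines, higher with cetuximab in SCC1 and SCC6 and lower in SCC25, and neither SCC1 nor SCC25 passed the test alone. The difference of the changes in SCC25 and SCC1 was -1.48 ± 0.40 and did not pass (adjusted p = 0.0608).

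The promoters of the other MMP genes had lower signal than that of MMP10 in SCC6. MMP7, the matrilysin gene, had 258, 228 and 238 with cetuximab and 385, 349 and 387 with PBS in SCC6 (log2 difference -0.63 ± 0.10), and its groups overlapped in SCC1 and SCC25. MMP8, the neutrophil collagenase gene, had 32.3, 37.1 and 32.7 against 61.6, 78.3 and 76.1 in SCC6 (-1.05 ± 0.23). MMP8 was also lower in every cetuximab library of SCC1 (5.08, 11.7 and 4.69 against 24.7 and 13.4) and SCC25 (1.41, 8.47 and 8.86 against 13.9, 13.7 and 12.7), and passed the test in neither.
MMP13, the collagenase-3 gene, had 85.9, 78.0 and 93.6 against 101, 141 and 122 in SCC6 (-0.49 ± 0.17). Its counts were 8.89, 13.6 and 9.39 against 14.3 and 17.9 in SCC1. In SCC25 the MMP13 groups overlapped, with 39.4, 26.1 and 33.6 against 49.7, 31.0 and 31.4. MMP20, the enamelysin gene of developing teeth, was the exception beside MMP10, with 53.5, 51.1 and 49.3 against 19.3, 32.8 and 35.9 in SCC6 (0.83 ± 0.26) and 1.27, 7.79 and 6.26 against 7.81 and 8.93 in SCC1. MMP27 had no promoter region, and the region nearest its start site, 9.80 kb away, had 24.1 to 33.3 with cetuximab and 18.5 to 26.1 with PBS in SCC6, where the groups overlapped. Of the 5 MMP promoters other than MMP1 with values, MMP7, MMP8 and MMP13 were lower and MMP10 and MMP20 higher with cetuximab in SCC6.

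MMP3, the stromelysin-1 gene, and MMP12, the macrophage elastase gene, could not be read. From 102707124 to 102821782, a run of 14 consecutive members over 115 kb stood at the value of 1 read in all 17 libraries, whereas the regions on both sides, ending at 102702226 and starting at 102826371, had signal. Peaks had nevertheless been called over the run, in 12, 12 and 13 of its regions in the SCC6 cetuximab libraries and in 6, 9 and 8 in the PBS libraries, with a median fold enrichment of 3.38 to 3.69. The peak lists and the values thus disagreed over this run, and no level or change is given for these genes. Over the whole set, 3251 regions (2.82%) were at 1 read in every library, 2441 of them with a peak in at least 3 libraries, and 73 runs of 10 or more regions occurred, of which this run ranked 27 by size. What emptied these regions was not tested.

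Counting every region centred between the outer ends of MMP7 and MMP13, 60 members were listed and 46 passed the filter on low values in SCC6. There 11 were higher and 23 lower (all regions 16.9 and 10.6%, tested members 28.7 and 30.9%), with a median change of -0.33. In SCC1, 38 were tested, 1 fell (all regions 6.56%) and the median was -0.15. In SCC25, 36 were tested, none was called by limma or DESeq2 and 1 by edgeR (1 higher and 7 lower at an unadjusted p under 0.05), and the median was -0.34. In both lines together 2 of 37 fell (all regions 2.79%), the MMP1 promoter and a region near MMP10 at 102634204 (-1.25, adjusted p = 0.047), whose call was kept in 3 of 18 alternatives. The members past the threshold were thus mostly lower in SCC6. In the tested lines the MMP1 promoter was the clearest, although no SCC1 library had a peak there.

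The strongest rise near the MMP genes lay 51.8 kb from the MMP13 start site, at 102878273 to 102878774, whose centre is printed above. In SCC6 it had 611, 706 and 620 with cetuximab and 85.8, 79.6 and 96.8 with PBS, a log2 difference of 2.87 ± 0.11. In SCC1 it had 19.0, 25.3 and 12.5 with cetuximab and 1.30 and 5.58 with PBS and rose (2.31 ± 0.73, adjusted p = 0.022), a call kept in 7 of 12 alternatives and lost without cetuximab replicate 1 or 2 or PBS replicate 1 (adjusted p up to 0.371). In SCC25 it had 7.03, 11.1 and 8.86 against 9.80, 6.49 and 9.33, and the groups overlapped. SCC1 PBS replicate 1 stood at the value of 1 read there.

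**Figure D4:**
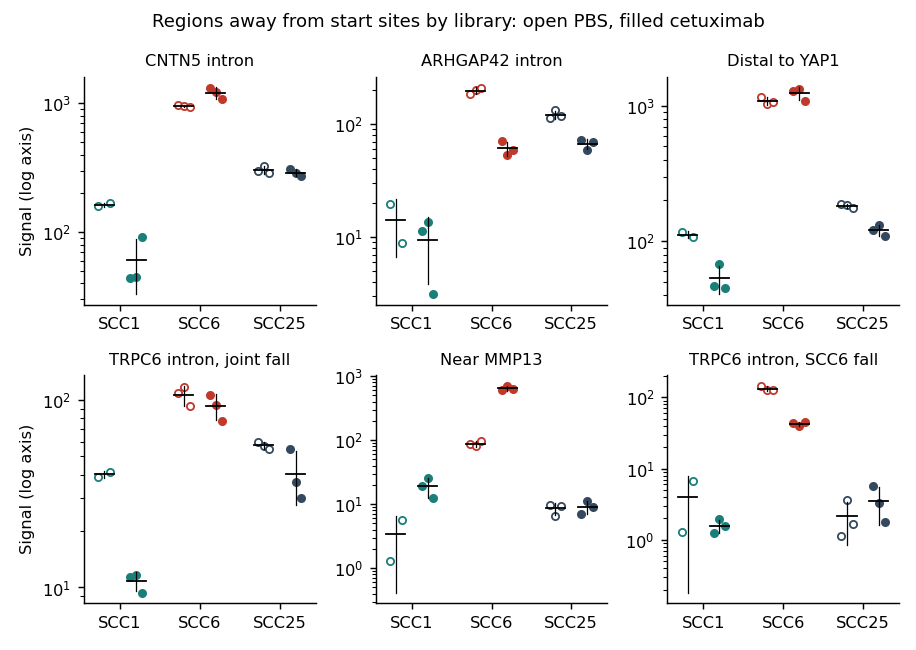
Normalised read counts (vertical axis, log scale) at 6 regions outside promoters, in each line. Open points are PBS and filled points cetuximab libraries, black lines are means and bars ± SD. Near MMP13 the SCC6 and SCC1 cetuximab points lie above PBS while SCC25 overlaps, and at the CNTN5 intron the SCC1 cetuximab points lie below PBS, the SCC6 points lie above and the SCC25 points overlap.

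The smallest adjusted p among the members tested in SCC1 and SCC25 belonged to an intron of CNTN5 at 100199496 to 100200527. In SCC1 it had 44.4, 44.8 and 92.3 with cetuximab and 159 and 167 with PBS, and it fell (log2 change -1.50 ± 0.27, adjusted p = 6.63e-06), in each of 12 alternatives (adjusted p from 1.14e-06 to 0.00875). SCC25 had 308, 289 and 273 against 298, 326 and 288, and SCC6 had 1322, 1219 and 1079 against 964, 947 and 936. It was the only member of 312 whose change differed between SCC25 and SCC1 past the threshold (1.44 ± 0.30, adjusted p = 0.0172, limma interaction), against 1.47% of all regions, and 41 members had an unadjusted p under 0.05.

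The 1 member that fell in SCC25 was an intron of ARHGAP42 at 100721835 to 100722326, with its centre printed above. It had 71.7, 59.3 and 69.1 with cetuximab and 112, 132 and 118 with PBS in SCC25 (log2 change -0.85 ± 0.18, adjusted p = 0.0323), a call kept in 8 of 13 alternatives and lost without cetuximab replicate 2 or any PBS library (adjusted p up to 0.267). In SCC6 it had 70.7, 52.9 and 59.2 against 182, 199 and 209, the largest fall named in that line (-1.68 ± 0.16), and in SCC1 11.4, 13.6 and 3.13 against 19.5 and 8.93, where the groups overlapped. A nearby ARHGAP42 intron at 100646887 to 100648221 had the highest signal of the segment in SCC25, with 308, 339 and 305 against 368, 377 and 349, and 1399, 1168 and 1141 against 1852, 1765 and 2071 in SCC6.

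Among the rises in SCC1, the region at 101896489 to 101897353, 20.8 kb from CFAP300, a gene of motile cilia, had 50.8, 56.4 and 40.7 with cetuximab and 14.3 and 19.0 with PBS (1.51 ± 0.41, adjusted p = 0.00506), and in SCC6 977, 1003 and 934 against 492, 529 and 531 (0.91 ± 0.07). Beyond DYNC2H1, a dynein heavy chain gene, the intergenic regions at 103570995 to 103571626 (1.44 ± 0.38, adjusted p = 0.00406) and 103464990 to 103465449 (1.21 ± 0.33, adjusted p = 0.00496) rose in SCC1 and differed by 0.18 and 0.12 in SCC6. Without PBS replicate 1 the adjusted p at 101896489 was 0.138, and without PBS replicate 3 it was 0.0921 at 103570995 and 0.187 at 103464990. The remaining rise in SCC1 was the region at 103357450 (2.49, adjusted p = 0.021), lost without cetuximab replicate 1 or 2 or PBS replicate 1 or 3 (adjusted p up to 0.213). The joint rise lay beyond CNTN5 at 100274458 to 100275018, with 19.0, 15.6 and 15.7 against 3.90 and 3.35 in SCC1 and 67.5, 66.4 and 46.0 against 39.9, 40.4 and 40.7 in SCC25 (1.16 ± 0.30, adjusted p = 0.0322), and with 901, 755 and 701 against 538, 498 and 510 in SCC6. All 3 lines were higher with cetuximab there, and the joint call was lost without SCC1 cetuximab replicate 1 or 3 or PBS replicate 1 or 3 (adjusted p up to 0.131).

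Among falls beyond the SCC6 border, the intergenic region at 103763451 to 103763662 had 2.54, 5.84 and 4.69 against 23.4 and 35.7 in SCC1 and was lower in SCC1 (-2.54, adjusted p = 0.00919) and in both lines together (-1.52, adjusted p = 0.028), calls that were lost without SCC1 PBS replicate 1 or 3 (adjusted p up to 0.253 and 0.149). The other falls in SCC1 were an intron of TMEM123, a gene of a cell surface mucin-like protein, at 102317337 (-1.42, adjusted p = 0.020) and a region beyond DYNC2H1 at 103495897 (-1.27, adjusted p = 0.004), kept in 7 and 8 of 12 alternatives and both lost without PBS replicate 1 or 3 (adjusted p up to 0.275 and 0.195). The remaining large differences of SCC6 were also intergenic or intronic. The region at 100865713 to 100866211, 2.90 kb from an ARHGAP42 start site, had 786, 728 and 661 against 76.1, 91.0 and 116 (2.94 ± 0.12), and that at 102555841 to 102556435 near MMP27 had 462, 437 and 459 against 73.7, 73.6 and 48.9 (2.80 ± 0.14). A CNTN5 intron at 99844687 to 99845118 had 303, 364 and 283 against 43.5, 54.2 and 60.9 (2.56 ± 0.15), and the region at 103649782, beyond the border, had 43.4, 25.1 and 43.3 against 1.21, 7.36 and 4.35 (3.01 ± 0.46). On the other side, an ARHGAP42 intron at 100712437 had 59.6, 32.5 and 51.9 against 173, 153 and 124 (-1.65 ± 0.20), a TRPC6 intron at 101633333 had 43.4, 39.9 and 44.6 against 145, 127 and 125 (-1.61 ± 0.19) and the region at 102365013 near TMEM123 had 80.8, 61.3 and 77.4 against 178, 222 and 209 (-1.46 ± 0.15). The groups were well apart in each of these regions in SCC6, and none of them was called in SCC1 or SCC25, where the region at 101633333 was not tested. No library analysed here had a peak at 101633333, SCC6 included.

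Members lay mostly outside promoters, with 201 in introns, 179 between genes, 8 in coding exons and 11 in noncoding parts of exons, and 27 within 1000 bp of a protein-coding start site. The AP-1 motif TGANTCA occurred in 36.3% of members, against 34.2% of all regions at the same widths, and the TEAD motif GGAATG in 28.6% against 24.6%. The TFAP2 motif GCCNNNGGC, searched on both strands like the others, occurred in 6.77% against 16.9%, and median GC content was 41.4% against 45.9% over all regions. Among members higher with cetuximab in SCC6, 40.7% held TEAD and 37.0% AP-1, and among those lower 29.3% and 40.5%, beside 19.7% and 30.3% of members not called. Over all regions the same groups had 38.7% and 32.3%, 26.6% and 57.0%, and 22.8% and 31.9%, so that AP-1 was less common in the lower members than in lower regions at large, by description and without a test.

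Other genes of the same pathways and families were read at their promoters. Of 25 Hippo and YAP/TEAD genes, YAP1 itself included, 4 rose and none fell in SCC1, where 12.6% of all promoters rose and 2.12% fell. They were NF2, an upstream activator of the Hippo kinases (log2 change 0.85, adjusted p = 1.84e-04), AJUBA, a LIM protein that restrains LATS (1.14, adjusted p = 3.03e-04), TEAD3 (0.94, adjusted p = 0.00676) and STK4, a Hippo kinase (0.85, adjusted p = 0.00816). In SCC1 and SCC25 together AJUBA alone rose (0.73, adjusted p = 0.0229), and none was called in SCC25 by limma, edgeR or DESeq2 (2 higher and 1 lower at an unadjusted p under 0.05). In SCC6, 2 were higher (WWTR1 and AJUBA) and 7 lower (YAP1, TEAD2, TEAD3, TEAD4, STK3, ANKRD1 and AXL), beside 5.65% and 10.9% of all promoters. Of 6 MMP genes elsewhere with a region, MMP11 rose in SCC1 (1.12, adjusted p = 0.00349) and in both lines together (0.81, adjusted p = 0.0411). By description in SCC6, 5 of them passed the filter, MMP14 (0.88) and MMP16 (0.55) were higher and MMP15 (-0.74) was lower. Of the IAP, TIMP and TRPC genes elsewhere, 3, 2 and 3 had a region and limma called none in any line (unadjusted p under 0.05 for 1 IAP gene in SCC1 and 1 TIMP gene in SCC25, the latter called by edgeR).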

How the data were processed

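Per the labels and the study's methods, the authors trimmed reads with Trim Galore 0.5.0, aligned them to hg19 (GRCh37) with Bowtie2 2.3.2, handled duplicates with Picard 2.18 and SAMtools 1.9, and used MACS2 for broad peaks of every single library. The MACS2 version and thresholds are not given in the sources used here, nor is any shift of reads for Tn5. The deposited peak lists give the authors' fold enrichment (a ratio) and −log10 p and q values per peak. The table of 115087 regions holds signal, that is read counts scaled per library by the authors with DiffBind. In all 17 libraries 100% of the deposited values were whole multiples of 1 read within a tolerance of 0.001.

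The table was analysed as deposited. Values were tested as log2(signal + 1) with limma 3.58.1 in R 4.3.3 (trend and robust moderation, two-sided), leaving out the 25% of regions lowest in mean, with Benjamini-Hochberg adjustment at 0.05 over all regions tested. The plan named edgeR should the table hold raw counts; since the unit is scaled, limma was kept, and edgeR 4.0.16 and DESeq2 1.42.0 on the recovered reads were alternatives. A fold change on this scale understates the change of low regions. Other alternatives were median centring, quantile normalisation, a pseudocount of 5, no filter, PBS or cetuximab libraries only, replicate blocks and leaving out each library. The main limma fits, the edgeR fits and the segmentation were tested on simulated data, and the other steps were not. Borders were set by least-squares segmentation with at least 20 regions a piece. Genes and features came from the GENCODE 44 annotation lifted to GRCh37, with promoters within 1000 bp of a protein-coding start site. Replicate numbers did not pair the samples, since no correlation of same-numbered deviations reached 0.1.

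The members and lists were chosen with earlier results of these data known. Named regions were the promoter of highest signal of YAP1, BIRC2, BIRC3, TRPC6 and each MMP gene (or else the region nearest the start site), up to 3 called members per direction in each tested comparison with the smallest adjusted p, the 5 largest rises and 5 largest falls in SCC6 among regions above the median signal whose groups did not overlap, and the highest member of each line. Other called members are named because they are few. The sequence of 1 further region is not reported here.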

Additional observations from a re-analysis of the deposited data

Results flagged for a closer look

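The intron of CNTN5 at 100199496 stood out because its cetuximab change differed between lines by test, with SCC25 exceeding SCC1 by 1.44 ± 0.30 log2 units (adjusted p = 0.0172, limma interaction over all regions). The same region moved apart between SCC1 (-1.50) and SCC6 (0.34), where every cetuximab library lay on opposite sides of PBS, and that difference was not tested.

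Other regions stood out because every cetuximab library of 1 line was above PBS and every library of another below. The MMP20 promoter at 102496058 had -0.83 in SCC1 and 0.83 in SCC6, a difference that was not tested. In SCC1 its counts were low, no library had a peak there, and the groups were apart only by 7.79 against 7.81. The SCC1 change did not pass the test (adjusted p = 0.576, limma). The MMP10 promoter at 102651186 had 0.80 in SCC1 and -0.68 in SCC25, for which the test of the difference did not pass (adjusted p = 0.0608), and 0.35 in SCC6, which was not tested against SCC25. The region at 103649782 had -0.42 in SCC25 and 3.01 in SCC6, not tested. SCC6 values were part of the choice of the segment and are descriptions.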

How the results depend on the processing

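The telomeric border kept its place, between 103620237 and 103646489, under every setting run. Of 18 members called in SCC1, DESeq2 called 10, and 4 to 19 were called without single libraries. In SCC25 (1 call) the count was 0 after centring, 2 with a pseudocount of 5, 4 with edgeR, and 0 to 3 without single libraries. In both lines together (8 calls) it was 16 with a pseudocount of 5, 3 without the filter, 14 with edgeR, 16 with DESeq2, and 0 to 12 without single libraries. In SCC6 (224) it was 199 to 219 without single libraries. With the replicate number as a block, SCC25 had 3 calls and both lines together 0. The numbers did not pair the samples.

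Median changes moved with centring to 0.14 in SCC1 and -0.17 in SCC6, and without the filter to -0.022 in SCC25. Without single libraries they were -0.18 to 0.0046 in SCC1, -0.082 to 0.086 in SCC6, -0.18 to -0.027 in SCC25 and -0.10 to -0.04 in both lines together. The median difference of SCC6 from SCC1 (3.49) was 3.43 with PBS only and 3.00 with a pseudocount of 5. From SCC25 (3.27) it was 3.14 with PBS only, 3.12 with cetuximab only and 2.72 with a pseudocount of 5. SCC25 minus SCC1 (0.24) was 0.33 with PBS only and 0.14 with a pseudocount of 5.

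The centromeric border against SCC25 (99.3 Mb) was at 99.4 Mb with a pseudocount of 5. Without single libraries it lay at 99.323 Mb, that against SCC1 at 99.2416 to 99.2896 Mb, the telomeric border at 103.646 Mb and the border between SCC25 and SCC1 at 96.6 to 97.4 Mb. A second border between SCC25 and SCC1, at 100.9 Mb, was found with PBS libraries only and with a pseudocount of 5. The log2 ratio of signal outside peaks (SCC1 -0.27, SCC6 2.36, SCC25 0.18) was -0.38 and 2.19 in SCC1 and SCC6 with PBS only. With regions of a peak in at most 1 library, 14 members, it was -1.14, 2.57 and -0.59, a reversal in SCC25. Without single libraries it was -0.30 to -0.24, 2.33 to 2.39 and 0.16 to 0.21. The cause of these shifts was not tested. Depth limits SCC1 most, with a median of 5 to 9 reads per member.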
